A study of Sus scrofa with 12 samples.

Results

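The muscle microRNAs (miRNAs) of the porcine ovary are described here: the rows of the mature miRNA table that are named miR-143, miR-145, miR-1, miR-133a, miR-133b, miR-206, miR-208b or miR-499, whichever arm of the hairpin they come from. They were chosen by name, and 12 of the 457 listed miRNAs met the rule. The left ovaries of 3 sows with a small litter size (SLS, 8.48 ± 0.53 piglets per litter in the study's design) and of 3 sows with a large litter size (LLS, 16.19 ± 0.43) were compared, and all 6 ovaries were taken 4 days after the 4th delivery. Each ovary came from 1 sow, and each table (small RNA, and total RNA without ribosomal RNA) holds 1 column named for each ovary. The small RNA samples carry the ovary's name with an added "rep" in the labels, so that values of both tables are set side by side by the column names alone. SLS ovaries were ZD2, ZD3 and ZD12, LLS ovaries were ZD5, ZD7 and ZD8, and values are given below in that order. The labels name no breed, and the whole ovary was used, so that fewer cells of a type and less RNA per cell cannot be told apart.

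A mature miRNA guides the silencing complex to messenger RNAs that pair with its seed, bases 2 to 8. MiR-143 and miR-145 are made from a shared primary transcript and are known as the miRNAs of smooth muscle, which lies in the walls of blood vessels and around follicles in the ovary. MiR-1 and miR-133a come from shared clusters and are known from heart and skeletal muscle, miR-206 and miR-133b from skeletal muscle, and miR-208b and miR-499 from introns of myosin heavy chain genes.

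The mature sequences, as the table lists them, show which members could act on the same messenger RNAs and which are so alike that reads could be split between them. The capitals mark the seed. Each was identical to the pig reference genome (Sscrofa11.1). MiR-143 and miR-145 had 4 different seeds on their arms:
miR-143-3p: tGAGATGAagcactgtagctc
miR-143-5p: gGTGCAGTgctgcatctctgg
miR-145-5p: gTCCAGTTttcccaggaatccctt
miR-145-3p: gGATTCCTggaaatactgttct

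MiR-1 and miR-206 shared a seed. They were identical at 18 of 21 aligned bases and differed by A11G, A17G and A21G, counted from the 5′ end of miR-1:
miR-1: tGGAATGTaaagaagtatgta
miR-206: tGGAATGTaaggaagtgtgtga

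The listed miR-133a-3p began 1 base later than miR-133b, so their listed seeds were shifted by 1 base. They were identical at 20 of 21 aligned bases and differed by A22G, counted from the 5′ end of miR-133b. The base before the listed miR-133a-3p was T in both of its hairpins, and a read begun 1 base earlier would have the seed of miR-133b:
miR-133a-3p: tTGGTCCCcttcaaccagctg
miR-133b: tTTGGTCCccttcaaccagctat
miR-133a-5p: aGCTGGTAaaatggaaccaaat

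MiR-499-5p and miR-208b shared bases 2 to 7 but not base 8, and were identical at 10 of 21 bases:
miR-499-5p: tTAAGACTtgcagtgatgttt
miR-208b: aTAAGACGaacaaaaggtttgt
miR-499-3p: aACATCACagcaagtctgtgct

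The hairpins lay on 4 chromosomes of Sscrofa11.1. MIR143 (chr2:150578738-150578817, plus strand) and MIR145 (chr2:150580126-150580211, plus strand) were 1308 bases apart, both in an intron of IL17B on the opposite strand. MIR1 (chr17:61894036-61894143) and MIR133A-1 (chr17:61904781-61904883) were 10637 bases apart on the plus strand, in no annotated gene. MIR133A-2 (chr6:106998899-106998971, minus strand) lay in an intron of MIB1 on the opposite strand, and of the long noncoding RNA LOC110261182 on its own strand. MIR206 (chr7:45976293-45976372) and MIR133B (chr7:45980138-45980217) were 3765 bases apart on the plus strand, in no annotated gene. MIR208B (chr7:75667786-75667865, plus strand) lay in an intron of MYH7 and MIR499 (chr17:38374118-38374197, plus strand) in an intron of MYH7B, each on the strand of its host.

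Levels of miRNAs are given as reads scaled to a common library total (RPM), in which 3 reads are 0.304 to 0.848 RPM. The totals used in this scaling were 3537619 to 9854086 reads, recovered by taking the smallest value of each library as 1 read. Listed miRNAs made up 97.6% to 98.7% of these totals, so they need not be all reads sequenced. Before the results, ovary ZD8 has to be set apart: the summed FPKM (fragments scaled to gene length and library size) of 7 luteal marker genes was 124 there and 9167 to 12191 in the other 5 ovaries, while that of the theca genes CYP17A1 and INSL3 was 415 against 9.31 to 74.4. Red blood cell miRNAs differed among the ovaries too, with miR-451 at 59104, 15530 and 1900 RPM in SLS and 9369, 7552 and 361 RPM in LLS. The parts of luteal, theca and blood cells in the results below were not tested, and the fold changes named below are given with and without ZD8.

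The 12 muscle miRNAs took 7.88%, 8.48% and 8.24% of these totals in the SLS libraries and 6.47%, 5.16% and 10.2% in the LLS libraries. One member made up most of this, since miR-143-3p held 90.3% of the members' reads and had the 3rd highest mean of all listed miRNAs. Members ranged from miR-143-3p at a mean of 69868 RPM to miR-208b, which had at most 2 reads in any ovary. After the filter on low values (at least 1 RPM in at least 3 libraries), 11 of the 12 members and 353 miRNAs in all were tested, and only miR-208b among the members was left out. The order of mean levels was miR-143-3p, miR-145-5p, miR-1, miR-145-3p, miR-143-5p, miR-499-5p, miR-133a-3p, miR-206, miR-133b, miR-133a-5p, miR-499-3p and miR-208b. Among neighbours in this order, the ranges over the 6 ovaries did not overlap between miR-143-3p and miR-145-5p, between miR-145-3p and miR-143-5p, and between miR-499-5p and miR-133a-3p, while all other neighbours overlapped.

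**Figure D1:**
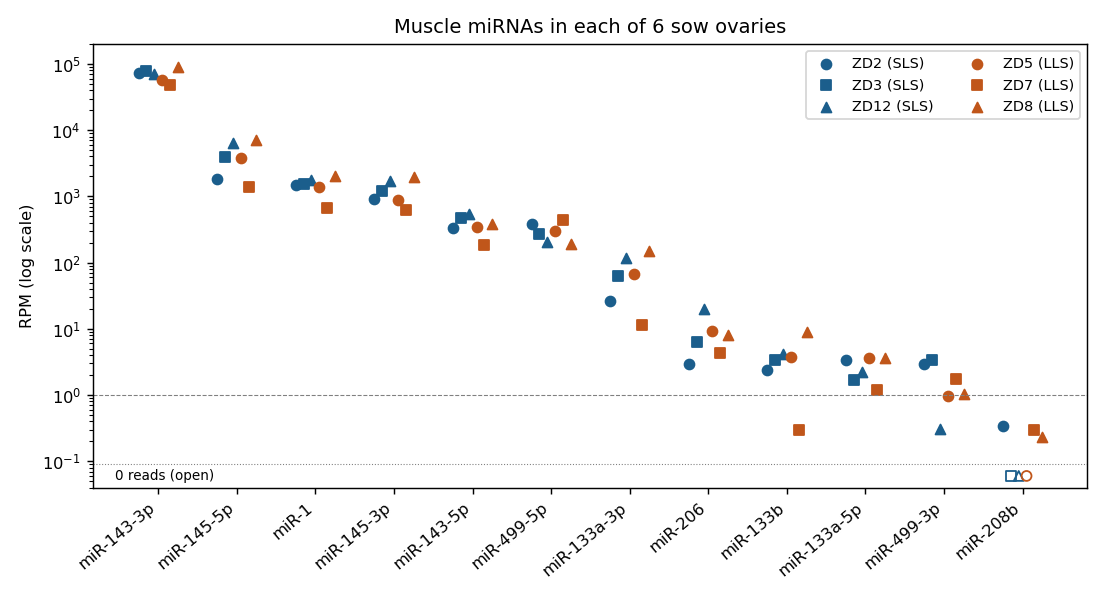
RPM of each muscle miRNA (log axis) in each ovary, with SLS ovaries in blue and LLS ovaries in orange; the dashed line is the minimum of 1 RPM, and open symbols stand for 0 reads. MiR-143-3p lies between 48264 and 90263 RPM, far above the other members, and SLS and LLS overlap for all 12.

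The smooth muscle miRNAs come first. MiR-143-3p was at 73887, 77243 and 71604 RPM in SLS and at 57946, 48264 and 90263 RPM in LLS. The SLS ovaries lay close together, and the LLS ovaries lay on both sides of them, 2 below and ZD8 above. The SLS mean was 74245 ± 2836 RPM and the LLS mean 65491 ± 21993 RPM (SD, n = 3 each), and the log2 fold change (LLS minus SLS, of log2(RPM + 1)) was -0.23 (SE 0.44, 95% interval -1.24 to 0.78, limma adjusted p = 0.997). It was the steadiest abundant member, with a 1.87-fold range over the 6 ovaries and the rank 2 to 5 in each library.

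MiR-145-5p, from the same primary transcript, varied much more. It was at 1832, 3982 and 6454 RPM in SLS and at 3733, 1406 and 7001 RPM in LLS, a 4.98-fold range. Each group held a low ovary (ZD2 and ZD7) and a high one (ZD12 and ZD8), and the group means of 4089 ± 2313 and 4047 ± 2811 RPM were near each other. The log2 fold change was -0.12 (SE 0.67, 95% interval -1.66 to 1.42). The range was still 4.09-fold once the reads of the 10 most abundant miRNAs were taken out of the totals.

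The other arms of these hairpins are usually degraded. MiR-145-3p was at 900, 1218 and 1705 RPM in SLS and at 882, 622 and 1987 RPM in LLS, with ZD7 lowest and ZD8 highest as for miR-145-5p. Its log2 fold change was -0.26 (SE 0.50). MiR-143-5p was at 328, 476 and 536 RPM in SLS and at 343, 185 and 379 RPM in LLS. All LLS ovaries were below ZD3 and ZD12, and ZD7 was also below ZD2. The log2 fold change of -0.60 (SE 0.42, 95% interval -1.56 to 0.37) was the largest among the members tested in this fit. By edgeR, DESeq2 and with array weights, that of miR-499-3p was larger.

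Among the miRNAs of striated muscle, miR-1 was the most abundant. It was at 1468, 1516 and 1775 RPM in SLS and at 1367, 666 and 2011 RPM in LLS. ZD7 was low and ZD8 high, and the other 4 ovaries lay between 1367 and 1775 RPM. The means were 1586 ± 165 and 1348 ± 673 RPM, with a log2 fold change of -0.37 (SE 0.45, 95% interval -1.41 to 0.67).

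MiR-133a-3p had the largest SD of log2(RPM + 1) among the members. It was at 26.2, 62.5 and 117 RPM in SLS and at 67.8, 11.4 and 149 RPM in LLS. The lowest value, in ZD7, rested on 77 reads (95% exact binomial interval 8.97 to 14.2 RPM) and the highest, in ZD8, on 1296 reads (141 to 158 RPM), so that the 13.1-fold range was wider than counting error, which is all these intervals cover. Its SD over the 6 ovaries, 1.35 on the log2 scale, was above that of 94.9% of the 353 miRNAs tested, against 15.9% for miR-143-3p and 85.0% for miR-145-5p. The LLS ovaries spanned the whole range and the SLS ovaries the middle of it, and the log2 fold change was -0.22 (SE 0.94, 95% interval -2.37 to 1.92).

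MiR-133b and miR-206, the skeletal muscle pair, were rare. MiR-133b was at 2.40, 3.39 and 4.16 RPM in SLS and at 3.73, 0.295 and 8.98 RPM in LLS, with 2 reads in ZD7 (95% exact interval 0.0358 to 1.07 RPM) and 78 reads in ZD8, a 30.4-fold range that rests on those 2 reads. MiR-206 was at 2.91, 6.22 and 19.7 RPM in SLS and at 9.24, 4.28 and 7.94 RPM in LLS, and was highest in ZD12. The log2 fold changes were -0.11 (SE 0.69) for miR-133b and -0.09 (SE 0.65) for miR-206. How reads that fit both miR-133a-3p and miR-133b, or both miR-1 and miR-206, were assigned is not given in the sources used here, so the low values of miR-133b and miR-206 are uncertain. The 5p arm of miR-133a was at 3.42, 1.70 and 2.23 RPM in SLS and at 3.57, 1.18 and 3.57 RPM in LLS, with a log2 fold change of 0.08 (SE 0.43).

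MiR-499-5p, the miRNA of the MYH7B intron, followed another order. It was at 381, 269 and 207 RPM in SLS and at 300, 434 and 188 RPM in LLS. The highest value was in ZD7 and the lowest in ZD8, where most other members had their lowest and highest. The means were 285 ± 88.0 and 307 ± 123 RPM, and the log2 fold change was 0.07 (SE 0.45, 95% interval -0.95 to 1.09). MiR-499-3p was at 2.91, 3.39 and 0.304 RPM in SLS and at 0.973, 1.77 and 1.04 RPM in LLS, with 3 reads in ZD12 and a log2 fold change of -0.34 (SE 0.50). MiR-208b had 2 reads in each of ZD2, ZD7 and ZD8 and 0 reads in ZD3, ZD12 and ZD5, where 3 reads, taken as the most that a count of 0 allows, would be 0.848, 0.304 and 0.487 RPM.

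No muscle miRNA was called between LLS and SLS (limma, adjusted p below 0.05 with a log2 fold change beyond 1 in either direction), beside 0% of the 353 miRNAs tested, and adjusted p was 0.997 for each member. Of the 353 miRNAs in this fit, 0 had an unadjusted limma p under 0.05 (1 without the filter, 1 with a pseudocount of 0.1 and 10 with array weights), while 4, 3 and 7 had one by edgeR's quasi-likelihood test, edgeR's exact test and DESeq2 on the recovered reads, with 0 called by each. The groups overlapped for all 11 members tested, where 2.83% of all miRNAs (10 of 353) had groups that did not overlap. Exact two-sided permutation tests gave p from 0.3 (miR-143-5p) to 1 (miR-133a-3p and miR-206), and 0.1 is the smallest p that 3 ovaries against 3 allow. Of the 11 members, 9 had a log2 fold change below 0, as had 181 of all 353 miRNAs (51.3%), and the median was -0.22 for the members and -0.01 for all. The intervals of miR-143-3p, miR-143-5p, miR-145-3p, miR-1 and miR-499-3p exclude a log2 fold change of 1 but not of -1. Those of miR-133a-5p and miR-499-5p exclude -1 but not 1, and those of miR-145-5p, miR-133a-3p, miR-133b and miR-206 exclude neither.

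Without ZD8, 10 of 11 members were lower in LLS, against 132 of 351 miRNAs (37.6%), and the median was -0.66 for the members and 0.16 for all miRNAs. The log2 fold change was then -0.49 for miR-143-3p, -0.66 for miR-145-5p, -0.73 for miR-1 and -1.01 for miR-133a-3p, while it was 0.38 for miR-499-5p. For the other members it was -0.79 (miR-143-5p), -0.73 (miR-145-3p), -0.78 (miR-133b), -0.18 (miR-206), -0.27 (miR-499-3p) and -0.10 (miR-133a-5p). Still 0 miRNAs were called (limma, smallest adjusted p 0.0691 over all miRNAs and 0.952 over the members). Without ZD7, in turn, the values turned to 0.50 for miR-145-5p, 0.069 for miR-1, 0.10 for miR-145-3p, 0.79 for miR-133a-3p, 0.69 for miR-133b, 0.20 for miR-206 and -0.22 for miR-499-5p.

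**Figure D2:**
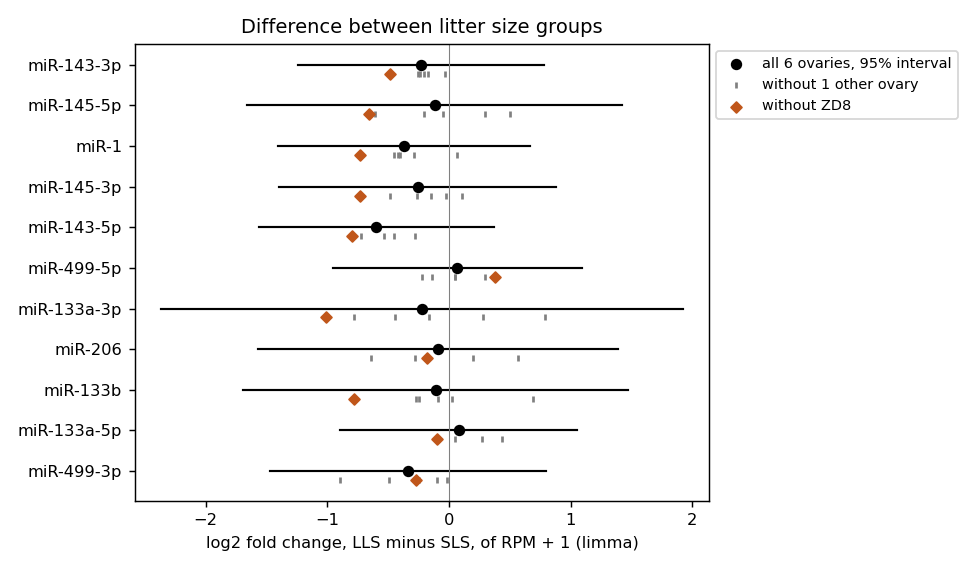
Log2 fold change (LLS minus SLS, of RPM + 1) of the 11 members tested, with the 95% interval of the limma fit on all 6 ovaries; small marks give the value with 1 ovary left out, and diamonds the value without ZD8. Every interval includes 0, and the interval of miR-133a-3p, from -2.37 to 1.92, is the widest.

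Several members shared their highest and lowest ovary, though not the order of the others, which was noticed after the values were seen. Of the 11 members, 6 had both their highest value in ZD8 and their lowest in ZD7, as had 22 of all 353 miRNAs (6.23%). These were miR-143-3p, miR-145-5p, miR-145-3p, miR-1, miR-133a-3p and miR-133b, among them both arms of miR-145 and partners of clusters. The reverse, highest in ZD7 and lowest in ZD8, was seen for 1 member, miR-499-5p, and for 15.9% of all miRNAs. Both ovaries are LLS ovaries, so this contrast lies within a group, and values of 1 library share its composition.

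**Figure D3:**
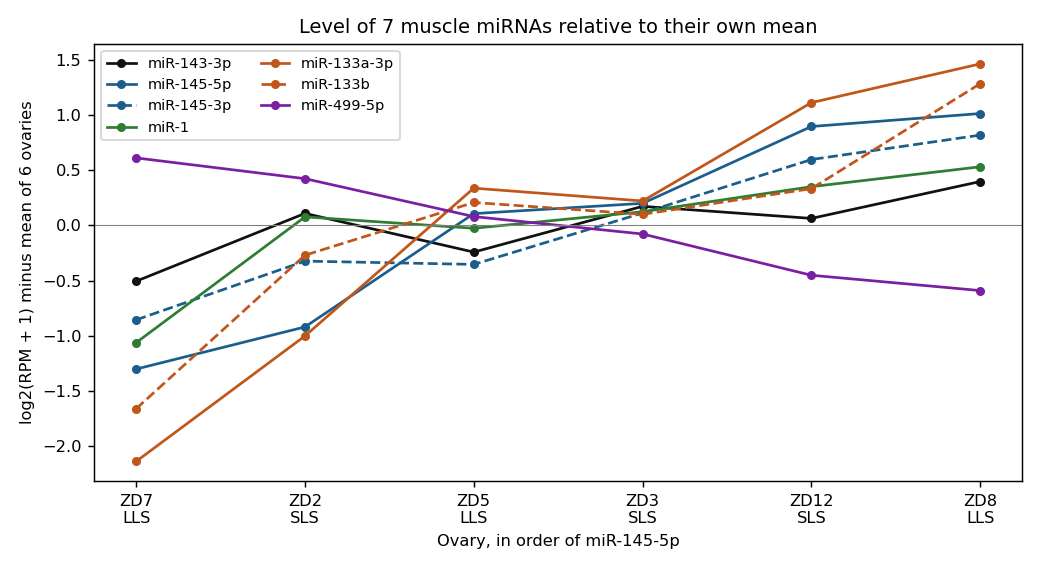
Log2(RPM + 1) minus the mean of the 6 ovaries for 7 members, with the ovaries in the order of miR-145-5p. The lines of miR-133a-3p and miR-145-5p climb steeply from ZD7 to ZD8, the line of miR-143-3p is flatter, and that of miR-499-5p descends.

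The miRNAs whose profile was most like a member's were found by the root mean square difference of log2(RPM + 1), centred on each miRNA's mean over the 6 ovaries. Nearest to miR-143-3p were miR-582-3p (0.14), miR-192 (0.16) and miR-140-5p (0.17), while the median over all tested miRNAs was 0.61. For miR-145-5p they were miR-199a-3p and miR-199b-3p (0.25 each) and miR-29c (0.27), with a median of 1.03. Nearest to miR-1 were miR-194a-5p (0.17), miR-214-5p (0.23) and miR-130a (0.25), with a median of 0.73. MiR-133a-3p was nearest to members of the set, miR-145-5p (0.41) and miR-133b (0.49), followed by miR-199a-3p (0.59), with a median of 1.39. The arms of miR-145, the cluster partner of miR-143, differed from miR-143-3p by 0.69 (miR-145-5p) and 0.36 (miR-145-3p).

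Plain ratios of RPM within a library do not depend on its total. The 3p arm of miR-143 exceeded the 5p arm 225, 162 and 134 times in SLS and 169, 260 and 238 times in LLS. For miR-145 the 5p arm was the higher, by 2.04, 3.27 and 3.79 times in SLS and 4.23, 2.26 and 3.52 times in LLS. The arms of miR-145 were thus much closer in level than those of miR-143 in all 6 ovaries.

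MiR-133a-3p exceeded miR-133a-5p 7.65, 36.8 and 52.3 times in SLS and 19.0, 9.63 and 41.8 times in LLS, and the 5p arm rested on few reads. MiR-499-5p exceeded miR-499-3p 79.2 to 680 times. MiR-499-5p exceeded miR-208b, which shares bases 2 to 7 with it, 817 to 1469 times in the 3 ovaries where miR-208b had its 2 reads.

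Members that share a cluster were not at a fixed ratio. MiR-143-3p was 40.3, 19.4 and 11.09 times the level of miR-145-5p in SLS and 15.5, 34.3 and 12.9 times in LLS, a 3.64-fold range. MiR-1 was 56.0, 24.3 and 15.2 times the level of miR-133a-3p in SLS and 20.2, 58.6 and 13.5 times in LLS. Since miR-133a-3p can also come from MIR133A-2, the latter is not a ratio within 1 cluster. No miR-1 hairpin is annotated beside MIR133A-2, but the sequence there was not searched for one. Both ratios were highest in ZD2 and ZD7, the ovaries with the least miR-145-5p and miR-133a-3p.

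MiR-1 was 90.1 to 504 times the level of miR-206, and miR-133a-3p was 10.9 to 38.5 times that of miR-133b. Of 9 ratios formed, 8 could be compared between groups, and exact two-sided permutation tests gave p from 0.2 (miR-143-3p over miR-143-5p) to 1 (miR-133a-3p over miR-133b). In these tests and in the log2 differences, 1 was added to each RPM, so pairs with a rare member still depend on the total. The log2 differences between LLS and SLS ranged from -0.41 for miR-499-3p over miR-499-5p to 0.37 for miR-143-3p over miR-143-5p. Leaving out 1 ovary at a time moved the first from -0.75 to -0.064 and the second from 0.19 to 0.57. Without ZD8 the differences ranged from -0.91 for miR-133a-3p over miR-133a-5p to 0.30 for miR-143-3p over miR-143-5p.

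**Figure D4:**
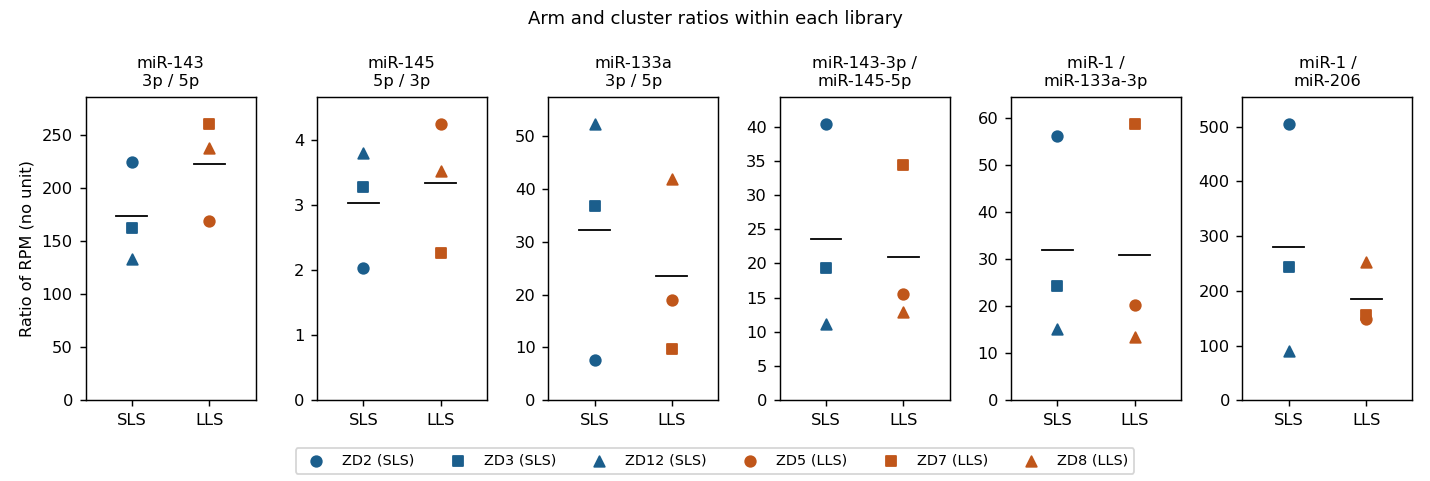
Ratios of RPM within each library for 6 pairs of members, on linear axes from 0; symbols are ovaries and the bars are group means. The groups overlap in each panel, and the ratio of miR-143-3p to miR-145-5p is highest in ZD2 (40.3) and ZD7 (34.3).

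The total RNA libraries of the same ovaries give the genes around the members. The precursor genes MIR143 and MIR145 have rows of their own in the gene table, at 1.44, 0.242 and 8.03 FPKM (MIR143) in SLS and 0.217, 0.616 and 12.8 FPKM in LLS. MIR145 was at 1.91, 1.80 and 14.1 FPKM in SLS and at 3.63, 2.48 and 29.5 FPKM in LLS. ZD8 and ZD12 were highest in both, as for mature miR-145-5p, while mature miR-143-3p differed little between ZD12 and the other SLS ovaries. LOC100514340 (chr2:150561382-150578201, plus strand, annotated as protein coding), which ends 537 bases before MIR143 on the same strand, was at 4.19, 3.20 and 16.6 FPKM in SLS and 3.48, 3.14 and 50.9 FPKM in LLS. It was named for its position after its values were seen. IL17B, on the opposite strand over both hairpins, was at 0.0815 to 4.01 FPKM, also highest in ZD8. Whether reads were counted by strand is not given in the sources used here, so reads of overlapping genes cannot be told apart, and values of genes as short as a hairpin rest on few fragments.

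Both myosin hosts were low. MYH7B, a slow myosin heavy chain gene that holds MIR499, was at 0.426, 0.514 and 0.743 FPKM in SLS and at 0.497, 0.544 and 2.40 FPKM in LLS. ZD8 had the highest MYH7B and the lowest miR-499-5p. MYH7, the host of MIR208B and the beta myosin heavy chain of slow muscle and heart, was at 0 to 0.0144 FPKM. MIB1, an E3 ubiquitin ligase on the strand opposite to MIR133A-2, was at 19.6 to 35.02 FPKM, and LOC110261182 at 0 to 0.295 FPKM. The rows MIR1, MIR133A-1, MIR133A-2, MIR133B, MIR206, MIR208B and MIR499 were listed at 0 in all 6 ovaries.

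Genes of the smooth muscle contractile apparatus were well expressed. All 18 genes of the list passed the filter (at least 1 FPKM in at least 3 libraries), with a summed level of 2731, 1308 and 1971 FPKM in SLS and 766, 1232 and 1836 FPKM in LLS. The order of the ovaries differed from that of miR-143 and miR-145. ZD5 was the lowest ovary for 12 of the 18 genes, beside 2326 of all 12260 genes, and the sum was highest in ZD2. Of the 18, 15 had a log2 fold change below 0 (5814 of all 12260 genes tested had), the median was -0.39 (0.02 for all genes), and 0 were called, beside 0% of all genes (216 genes, 1.76%, had an unadjusted limma p under 0.05). Without ZD8, 18 of 18 were below 0 with a median of -0.88, beside 7886 of 11985 genes with a median of -0.10, and 0 of the 18 were called, beside 0.167% of all genes.

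ACTA2, the smooth muscle alpha actin, was at 1098, 384 and 592 FPKM in SLS and at 196, 374 and 428 FPKM in LLS. ZD2 was far above the rest, the groups overlapped by the values of ZD3 and ZD8, and the log2 fold change of log2(FPKM + 1) was -0.99 (SE 0.56, limma adjusted p = 0.999) and -1.21 without ZD8, but -0.59 without ZD2 and -0.65 without ZD5. For TAGLN (transgelin), MYL6 (a myosin light chain) and CSRP1 (a cytoskeletal LIM protein), the log2 fold changes were -1.10 (SE 0.58), -0.41 (SE 0.34) and -0.45 (SE 0.46), and without ZD8 they were -1.33, -0.34 and -0.83. They were nearer to 0 for TAGLN (-0.61) and CSRP1 (-0.094) without ZD5, and for MYL6 (-0.25) without ZD2. ACTG2, the enteric smooth muscle actin, named after its values were seen, was the only one of the 18 with each LLS ovary below each SLS ovary, beside 3.17% of all genes. It was at 77.6, 30.5 and 63.0 FPKM in SLS and at 15.4, 23.0 and 27.8 FPKM in LLS, with a log2 fold change of -1.27 (SE 0.40, limma adjusted p = 0.999) that was -1.45 without ZD8. MYH11, the smooth muscle myosin heavy chain, also named after its values were seen, was at 28.4, 25.6 and 47.1 FPKM in SLS and at 15.5, 20.1 and 190 FPKM in LLS, so 9 of the 18 genes, MYH11 among them, were highest in ZD8, as were 5465 of all 12260 genes.

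**Figure D5:**
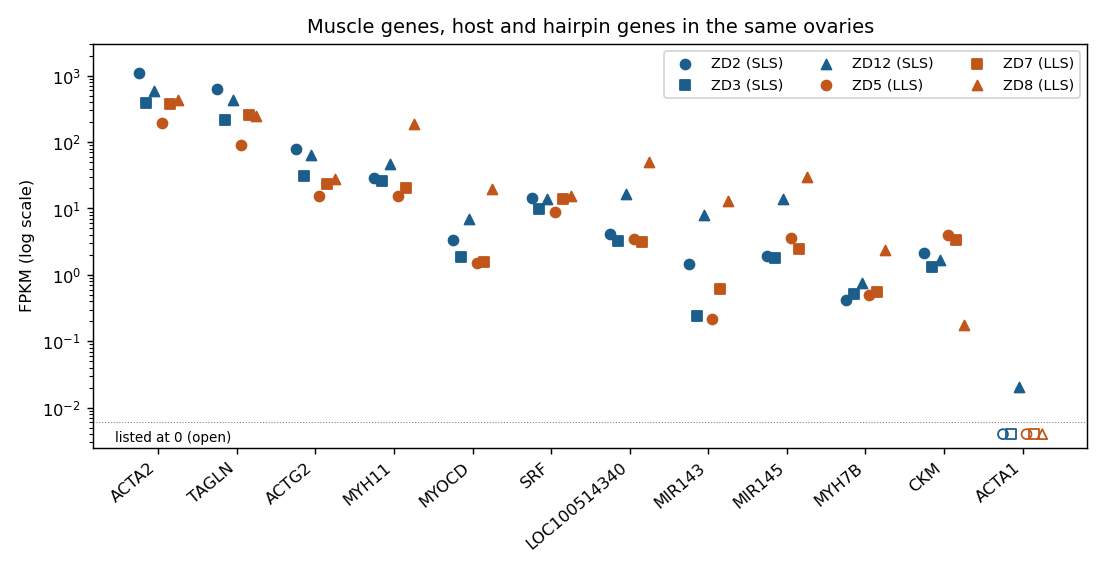
FPKM (log axis) of smooth muscle genes, the regulators MYOCD and SRF, genes at the MIR143 and MIR145 hairpins, MYH7B and 2 skeletal muscle genes in each ovary; open symbols are values listed at 0. MYOCD, LOC100514340, MIR143 and MIR145 are highest in ZD8, and ACTA1 is listed at 0 in 5 of 6 ovaries.

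Genes that define skeletal muscle were low or listed at 0, and a few genes of slow and cardiac muscle were read at low levels. Of the 13 skeletal muscle markers 12 were listed and 1 passed the filter, and their summed level was 1.27 to 4.30 FPKM. That gene was CKM, the muscle creatine kinase, at 0.178 to 3.97 FPKM, while ACTA1, the skeletal actin, was at most 0.0205 FPKM. Of the 14 slow and cardiac markers 13 were listed and 2 passed, TNNI3 (cardiac troponin I) and MYBPC3 (cardiac myosin binding protein C), with MYL2 and NPPA listed at 0 in all ovaries. This list summed to 13.8, 11.2 and 19.96 FPKM in SLS and to 6.62, 8.99 and 9.01 FPKM in LLS. TNNI3 was at 4.54, 2.94 and 4.28 FPKM in SLS and at 2.88, 3.65 and 1.996 FPKM in LLS. MYBPC3 was at 8.56, 7.51 and 14.2 FPKM in SLS and at 2.98, 4.66 and 2.38 FPKM in LLS. Each LLS ovary was below each SLS ovary, as for 3.17% of all genes, with a log2 fold change of -1.34 (SE 0.34, limma adjusted p = 0.999) that was -1.18 without ZD8. Pericyte markers summed to 196 to 373 FPKM, and their part in the levels of miR-143 and miR-145 was not tested.

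The regulators known to drive the MIR143 and MIR145 locus are SRF with its cofactors MYOCD (myocardin), MRTFA and MRTFB, and the MEF2 factors act at the MIR1 and MIR133 clusters. The list of 10 also held KLF4, KLF5 and ELK1, which are targets of miR-143 and miR-145 too. All 10 passed the filter and 0 were called, and 7 were highest in ZD8, as were 5465 of all 12260 genes. Those with a log2 fold change below 0 were 2, KLF5 and ELK1, beside 5814 of all 12260 genes. Without ZD8 they were 7 of 10, beside 7886 of 11985 genes. MYOCD was at 3.34, 1.84 and 6.96 FPKM in SLS and at 1.53, 1.57 and 19.99 FPKM in LLS. ZD8 and ZD12 were highest, as for the MIR143 and MIR145 rows, and ZD5 and ZD7 lowest. Its log2 fold change was 0.16 (SE 0.81) with ZD8 and -0.86 without it. SRF was steady at 14.2, 9.68 and 13.9 FPKM in SLS and at 8.78, 14.0 and 15.4 FPKM in LLS.

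Reported targets were read in the same way, and their 3′ untranslated regions (UTRs) were searched on the transcript strand for the 7 letters that pair with bases 2 to 8. Of 18749 annotated UTRs, AACTGGA (miR-145-5p) was in 12.3%, TCATCTC (miR-143-3p) in 11.9%, ACATTCC (miR-1 and miR-206) in 10.2%, GGACCAA (miR-133b) in 8.01%, GGGACCA (miR-133a-3p) in 10.8%, AGTCTTA (miR-499-5p) in 8.42% and CGTCTTA (miR-208b) in 2.15%. The letters of miR-133a-3p and miR-133b overlap by 6 bases. A match is a description of these letters and not a measured site. Among the 7 genes of the miR-143 and miR-145 list with an annotated UTR, 6 held the letters for miR-145-5p and 2 those for miR-143-3p. Longer UTRs hold such letters more often. Among all UTRs of like length, those for miR-145-5p were in 8.36% (length of KLF4) to 33.3% (length of SSH2). KLF5 was not searched.

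The sites shown are those of genes whose levels follow, with 11 bases before the match and 5 after it, and the capitals mark the match. KLF4, a factor that opposes the contractile state, held 1 for miR-145-5p, FSCN1, an actin bundling protein, held 2, and GJA1, the gap junction protein connexin 43, held 2 for miR-1:
KLF4 (chr1:248605504-248605526, minus strand): atggggtctgtAACTGGAtcttc
FSCN1 (chr3:4142280-4142302, plus strand): ctcgcctttccAACTGGAaaccc
FSCN1 (chr3:4142529-4142551, plus strand): gcggggtgtgtAACTGGAatctc
GJA1 (chr1:40990077-40990099, minus strand): tccctgctaaaACATTCCattgt
GJA1 (chr1:40988936-40988958, minus strand): taatttgtttgACATTCCatatt

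Of the 8 listed targets of miR-143 and miR-145, 4 had a log2 fold change below 0, also 4 without ZD8, and 0 were called. Over all genes, 5814 of 12260 were below 0, and 7886 of 11985 without ZD8. These shares also stand beside the target lists that follow. FSCN1 was at 214, 147 and 174 FPKM in SLS and at 65.3, 109 and 126 FPKM in LLS. Each LLS ovary was below each SLS ovary, as for 3.17% of all genes, with a log2 fold change of -0.86 (SE 0.37, limma adjusted p = 0.999) that was -1.05 without ZD8. KLF4 was at 5.69, 5.42 and 3.88 FPKM in SLS and at 6.45, 6.86 and 4.89 FPKM in LLS, and was lowest in ZD12 and ZD8, where miR-145-5p was highest. Of the 8 listed targets, 4 were instead highest in ZD8, as were 5465 of all 12260 genes. The order of KLF4 was noticed after the values were seen and was not tested.

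Of the 5 listed targets of miR-1 and miR-206, 4 passed the filter, 3 had a log2 fold change below 0 (2 without ZD8) and 0 were called. The letters were in 4 of their 5 UTRs. GJA1 was at 95.6, 163 and 145.4 FPKM in SLS and at 82.8, 98.2 and 82.2 FPKM in LLS, with a log2 fold change of -0.58 (SE 0.32) and of -0.54 without ZD8.

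Of the 4 listed targets of miR-133a and miR-133b, all were tested, 1 had a log2 fold change below 0 (3 without ZD8) and 0 were called, and PTBP2, a splicing regulator, was the 1 gene with letters for either miR-133a-3p or miR-133b. PTBP2 was at 4.78, 8.98 and 6.16 FPKM in SLS and at 5.46, 3.98 and 19.7 FPKM in LLS, with the lowest value in ZD7 and the highest in ZD8, as for miR-133a-3p. Of the 3 listed targets of miR-208b and miR-499, 2 were tested, 0 had a log2 fold change below 0 (1 without ZD8) and 0 were called. SOX6, a repressor of slow muscle genes, held the letters for miR-499-5p 5 times in a UTR of 6542 bases. Of all UTRs of like length, 36.0% held these letters. SOX6 was at 0.321 to 0.744 FPKM. MED13, a Mediator subunit, held the letters for miR-208b once, beside 5.06% of UTRs of like length that held them. MED13 was at 19.5 to 35.6 FPKM.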

How the data were processed

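Small RNA and total RNA without ribosomal RNA were sequenced from 6 ovaries. For miRNAs the deposited values are RPM, that is reads divided by a library total (the authors' name for them is TPM), in columns named for the ovaries. All 2618 values above 0 gave whole reads within 0.001. For genes the authors deposited FPKM, from trimmed reads aligned to Sscrofa11.1 by HISAT2. The submitters' processing notes also name BWA. The miRNA annotation and the rules for reads that match several miRNAs are not given in the sources used here, nor is the program that counted genes. The depth of the gene libraries was not recomputed here, and FPKM values are printed without intervals. The fold changes of low features depend on the pseudocount of 1. With a pseudocount of 0.1 the log2 fold change of miR-133b moved away from 0, from -0.11 to -0.48. Those of miR-499-3p (-0.34 to -0.30), miR-206 (-0.09 to -0.06) and miR-133a-5p (0.08 to 0.07) moved slightly toward 0.

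The main test was limma 3.58.1 in R 4.3.3 with a trended variance on log2(RPM + 1) or log2(FPKM + 1), for features of at least 1 in at least 3 libraries, with p-values adjusted by Benjamini-Hochberg over 353 miRNAs or 12260 genes. Single members and ratios were compared by exact two-sided permutation tests over the ovaries. Alternatives were edgeR 4.0.16 and DESeq2 1.42.0 on the recovered miRNA reads, other pseudocounts, filters and scalings, array weights, and leaving out each ovary. The scripts were tested on simulated data. Members and gene lists were chosen with earlier results of these data known. The named genes were the hosts of hairpins, the 4 genes of highest mean FPKM in a list and those listed at 0, regulators and targets, and the 3 miRNAs most like a member. The values of 1 listed target are not reported here. CCN2, MRTFA and MRTFB were read under older symbols. Sequences and positions came from the deposited table and RefSeq's annotation of Sscrofa11.1.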

Additional observations from a re-analysis of the deposited data

How the results depend on the processing

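With 3 ovaries per group the direction of most members was not fixed. Over 117 alternatives for the 11 members tested, 102 kept the direction and 15 turned it. The log2 fold change turned to 0.092 (both edgeR tests) and 0.13 (DESeq2) for miR-145-5p, to 0.019 (DESeq2) for miR-145-3p, to 0.29 (both edgeR tests) and 0.32 (DESeq2) for miR-133a-3p, to -0.062 (quantile normalization) for miR-499-5p, and to 0.084 (quantile normalization) and 0.12 (array weights) for miR-206. For miR-133b it turned to 0.061 (pseudocount 5), 0.080 (quantile normalization), 0.52 and 0.53 (edgeR's quasi-likelihood and exact tests) and 0.58 (DESeq2). The ratio of miR-133a-3p to miR-133b turned to 0.24 (pseudocount 0.1) and MYOCD to -1.03 (array weights). MiR-499-3p kept its sign, but its log2 fold change of -0.34 moved to -0.73 and -0.75 (edgeR's quasi-likelihood and exact tests). It was -0.70 both by DESeq2 and with array weights. The cause was not tested.

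Leaving out 1 ovary at a time, the log2 fold change ran from -0.66 to 0.50 for miR-145-5p, from -0.73 to 0.10 for miR-145-3p, from -0.73 to 0.069 for miR-1, from -1.01 to 0.79 for miR-133a-3p, from -0.10 to 0.44 for miR-133a-5p, from -0.78 to 0.69 for miR-133b, from -0.64 to 0.56 for miR-206 and from -0.22 to 0.38 for miR-499-5p. It stayed below 0 for miR-143-3p (-0.49 to -0.04), miR-143-5p (-0.80 to -0.28) and miR-499-3p (-0.89 to -0.02). Log2 differences of ratios ran from -0.40 to 0.12 (miR-145-3p over miR-145-5p), -1.05 to 0.35 (miR-133a-3p over miR-133a-5p), -0.56 to 0.37 (miR-143-3p over miR-145-5p), -0.36 to 0.72 (miR-133a-3p over miR-1), -0.51 to 0.25 (miR-133a-3p over miR-133b) and -0.85 to 0.22 (miR-1 over miR-206). Those of the other ratios kept their sign, from 0.19 to 0.57 (miR-143-3p over miR-143-5p) and from -0.75 to -0.064 (miR-499-3p over miR-499-5p). Among genes, MYOCD ran from -0.86 to 0.67, ACTA2 from -1.35 to -0.59, TAGLN from -1.53 to -0.61, MYL6 from -0.59 to -0.25 and CSRP1 from -0.83 to -0.094. No alternative called a miRNA, with 0 to 11 at an unadjusted p under 0.05. For genes, 0 to 20 were called with 1 ovary left out, the 20 without ZD8, and 13 with array weights. No paired analysis was possible because the labels give SLS and LLS ovaries no shared numbers. Values under about 1 RPM rest on few reads.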
